A study of Arabidopsis thaliana with 4 samples.

Results

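The 6 genes described here are 2 of the anthocyanin pathway, DFR (AT5G42800) and PAP1 (AT1G56650), and 4 of chloroplast greening, CGA1 (AT4G26150), LHCB2.1 (AT2G05100), RBCS1A (AT1G67090) and RBCS3B (AT5G38410). They were chosen by identifier, with their read counts and ratios in these data already known, so their values are a description. Each has 1 row in the table that compares Cd with control in the ein3eil1 mutant, among 1001 gene models listed there. The table for the wild type Col, which lists 807 models, holds none of the 6. Both tables together list 1487 genes. All values come from 4 RNA-seq libraries of Arabidopsis thaliana roots: wild type Col-0 and the ein3-1eil1-1 double mutant, each on MS medium without treatment or after 6 h in 150 µM CdSO4, at 5 days of age. EIN3 and EIL1 are transcription factors at the end of the ethylene pathway, and both mutant libraries carry the mutations of both genes, per the labels. There was 1 library per group, so no value has a replicate check and no test across samples was possible. The labels do not say how many seedlings a library holds, or whether the controls were kept for the same 6 h.

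Anthocyanins are red to purple flavonoid pigments that plants make in response to light, sugar and stress. PAP1, a MYB transcription factor, works with bHLH and WD40 partner proteins to switch on the late genes of the pathway, among them DFR, whose enzyme makes the colourless precursors of the pigment. Greening is the build-up of chloroplasts. CGA1 is a GATA factor, induced by cytokinin and light, that promotes chloroplast formation; LHCB2.1 is a chlorophyll-binding antenna protein of photosystem II; and RBCS1A and RBCS3B are small subunits of Rubisco, the enzyme that fixes carbon dioxide. Roots grown in light can form some chloroplasts, although photosynthesis genes are mainly expressed in leaves.

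The bases just upstream of 3 of the genes are shown because they hold matches to motifs known from light-regulated and MYB-regulated promoters. Each stretch is the 250 bases before the annotated RefSeq gene start in TAIR10.1, read 5′ to 3′ on the strand of the gene, and capitals mark every match. The motifs searched on both strands were the G-box CACGTG, its core ACGT (which lies within every G-box), the GATA motif GATAAG and the AC element ACCNANC. The stretches are chr5:17166033-17166282 for DFR, chr1:21235293-21235542 for PAP1 and chr2:1824481-1824730 for LHCB2.1, all on the minus strand.
DFR: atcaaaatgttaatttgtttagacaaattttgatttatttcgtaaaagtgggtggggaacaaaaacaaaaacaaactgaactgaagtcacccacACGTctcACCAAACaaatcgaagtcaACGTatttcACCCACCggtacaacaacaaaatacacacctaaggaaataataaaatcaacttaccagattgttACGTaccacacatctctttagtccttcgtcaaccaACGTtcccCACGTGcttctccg
PAP1: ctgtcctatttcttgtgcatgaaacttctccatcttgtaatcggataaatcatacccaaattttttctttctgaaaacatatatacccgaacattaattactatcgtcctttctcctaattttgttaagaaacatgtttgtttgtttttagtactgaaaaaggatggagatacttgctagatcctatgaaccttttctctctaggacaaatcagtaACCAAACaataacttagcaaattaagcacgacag
LHCB2.1: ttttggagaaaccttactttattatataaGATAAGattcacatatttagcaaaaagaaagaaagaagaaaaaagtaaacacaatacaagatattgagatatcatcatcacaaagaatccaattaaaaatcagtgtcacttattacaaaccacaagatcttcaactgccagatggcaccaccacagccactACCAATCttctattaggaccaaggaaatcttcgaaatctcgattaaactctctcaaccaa

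DFR held the 1 G-box, 14 to 9 bases before the RefSeq gene start, and 5 copies of the ACGT core. It also held 2 AC elements, while PAP1 and LHCB2.1 held 1 each. LHCB2.1 held the 1 GATA motif, 221 to 216 bases before the start. None of the 4 motifs matched in the windows of CGA1, RBCS1A and RBCS3B. By the deposited coordinates, whose build is not named, each of the 6 models starts inside its RefSeq gene. The bases between a window and the model start were therefore not searched, and the distances given are not from model starts. For RBCS1A, on the minus strand, the window begins at 25049668 and the deposited model starts at 25049424. Among 27443 protein-coding genes with a window of this length, 6.49% held a G-box, 44.1% an ACGT core, 12.3% the GATA motif and 27.8% an AC element. These matches describe letters only, and nothing was measured about binding.

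Of the anthocyanin genes, DFR had the firmer values. DFR (chromosome 5, 17164141 to 17165918, minus strand, in the deposited coordinates, whose build is not named) had 57 reads in the ein3eil1 control and 306 reads with Cd. Scaled to RPKM, the reads per kilobase of model scaled to the total reads of the library, these are 2.47 (95% exact Poisson interval 1.87 to 3.2) and 13.4 (11.9 to 15). The Cd level was 5.43-fold the control level, with a 95% exact interval of 4.08 to 7.34. Such intervals cover counting error only, as there was 1 library per group. Even that error may be understated, since reads of amplified libraries are not independent molecules. The FDR in the authors' deposited table was 2.29e-41; it sets the reads of 1 library against those of another and knows no spread between plants.

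PAP1 (chromosome 1, 21233595 to 21235137, minus strand) had 0 reads in the control and 15 reads, or 0.977 RPKM (0.547 to 1.61), with Cd. Set against a floor of 3 control reads its ratio was 5.06-fold, and the exact counting interval of the ratio, which has no upper end, began at 3.63-fold. Its level with Cd was far below that of DFR, 1 of the genes it is known to switch on. The FDR in the authors' deposited table was 0.000196. Among the models of ein3eil1, 14 are listed from 0 control reads, and the fewest Cd reads among them were 13, so PAP1 stood 2 reads above the fewest listed.

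CGA1 (chromosome 4, 13253210 to 13254904, plus strand), the greening regulator, resembled PAP1 in its counts. It had 0 reads in the ein3eil1 control and 14 with Cd, or 0.639 RPKM (0.349 to 1.07), a ratio of 4.72-fold to the same floor, with an interval that began at 3.35-fold. The FDR in the authors' deposited table was 0.00037, and CGA1 stood 1 read above the fewest listed from 0 control reads. Deposited RPKM values enter 0.001 for 0 reads, so the log2 ratios of 9.93 for PAP1 and 9.32 for CGA1 in the authors' deposited table rest on that constant.

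The 3 photosynthesis genes were already expressed in untreated mutant roots. RBCS1A (chromosome 1, 25048158 to 25049424, minus strand) had 360 reads without and 807 reads with Cd, or 20.7 RPKM (18.6 to 22.9) and 46.9 RPKM (43.7 to 50.2). It was the most abundant of the 6 genes in both libraries, and its ratio was 2.27-fold (2 to 2.57). LHCB2.1 (chromosome 2, 1823240 to 1824425, minus strand) had 141 and 331 reads, or 7.54 RPKM (6.34 to 8.89) and 17.9 RPKM (16 to 19.9), a ratio of 2.37-fold (1.94 to 2.91).

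RBCS3B (chromosome 5, 15377173 to 15378416, minus strand) had 54 reads in the control and 169 with Cd, or 3.23 RPKM (2.43 to 4.21) and 10.2 RPKM (8.74 to 11.9). Its ratio of 3.17-fold (2.32 to 4.38) was higher than those of RBCS1A and LHCB2.1, but the intervals overlapped. That of DFR lay above those of RBCS1A and LHCB2.1 without overlap and overlapped that of RBCS3B. In RPKM the untreated levels ran from RBCS1A through LHCB2.1, RBCS3B and DFR to CGA1 and PAP1, the last pair without a read. RBCS3B and DFR did not differ there beyond their counting intervals. With Cd, the counting intervals of DFR (from 11.95 RPKM) and RBCS3B (up to 11.88 RPKM) only just failed to overlap. PAP1 and CGA1 could not be separated.

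**Figure D1:**
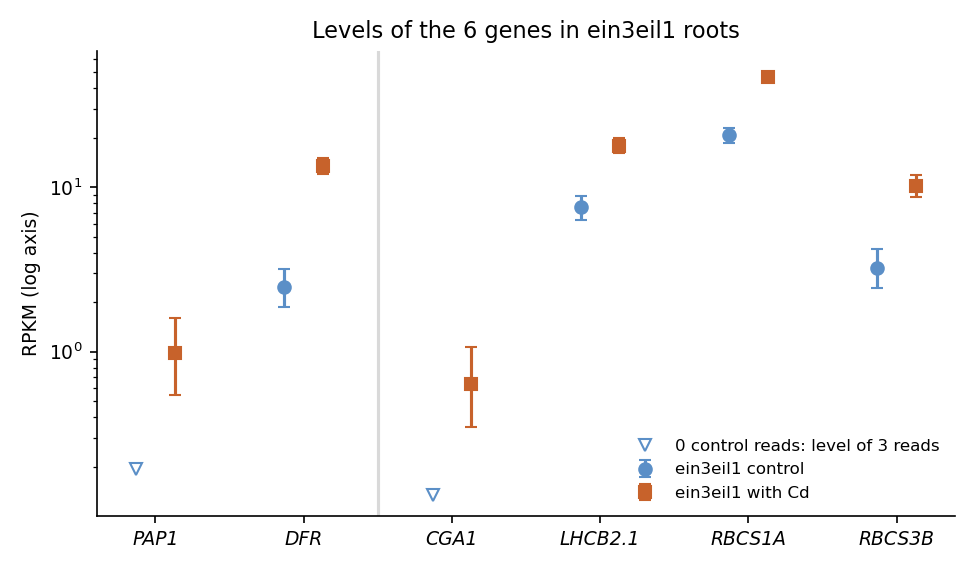
RPKM (log axis) of the 6 genes in the ein3eil1 control library (blue circles) and the ein3eil1 library with Cd (orange squares), with 95% exact Poisson intervals; open triangles mark the level of 3 reads where the control had 0 reads, and the grey line separates the anthocyanin genes from the greening genes. In each gene the Cd level lies above the control level, from 0.639 RPKM for CGA1 to 46.9 RPKM for RBCS1A with Cd.

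All 6 were thus listed as higher with Cd in ein3eil1, where 2.21% of the 28617 models tested were listed as higher. As the genes were chosen for this contrast, nothing is read from that share. Within the 632 models listed as higher, whose median ratio was 2.86-fold, DFR stood at place 119 by ratio, PAP1 at 131, CGA1 at 153, RBCS3B at 260, LHCB2.1 at 444 and RBCS1A at 493, with PAP1 and CGA1 placed by their ratio to the floor. By RPKM with Cd the order turned: RBCS1A stood at place 76, LHCB2.1 at 149, DFR at 193, RBCS3B at 230, PAP1 at 597 and CGA1 at 621. The 2 transcription factor genes thus had very few reads and ratios that rest on the floor, while RBCS1A and LHCB2.1 combined many reads with ratios just past 2-fold. Log2 ratios were also centred on the median of the 290 models listed in both tables (1.13 in ein3eil1). RBCS1A then came to 0.05 and LHCB2.1 to 0.12, and DFR, PAP1 and CGA1 were the 3 that kept a 2-fold difference. For PAP1 and CGA1 this followed from the floor and the listing limit. From 0 control reads a model was listed only from 13 reads with Cd, more than 4-fold the floor of 3 reads. No listed log2 ratio lies between -1 and 1, and that median does not estimate an error of scaling.

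None of the 6 was listed for Col, where 1.56% of 28758 models were listed as higher. A model can be unlisted because its level differed by less than 2-fold, because it had too few reads or for another reason, and Col reads of these genes are not given. A comparison of the genotypes was therefore not possible for any of the 6. What the Col table would have listed can be stated. The deposited p-values were recovered within 0.482% in Col from the read counts and library totals, which gives the fewest reads that meet the authors' limits. From 0 control reads, 12 reads with Cd were enough for Col, fewer than the 15 of PAP1 and the 14 of CGA1 in ein3eil1. At the mutant's control level scaled to the Col depth, DFR would have 64 control reads and be listed from 112 reads with Cd; the mutant's level with Cd corresponds to 305. For RBCS3B the figures are 61, 107 and 169 reads, for LHCB2.1 159, 278 and 330, and for RBCS1A 407, 712 and 806. Each pair of mutant levels would thus have met the Col limits, with the widest gap for DFR. This outcome was close to fixed in advance, as all 6 were listed in ein3eil1 under nearly the same limits. There DFR needed 113 reads with Cd, and a model with 0 control reads needed 13. The outcome says nothing about the Col levels of these genes. The ratio intervals of RBCS1A (2 to 2.57) and LHCB2.1 (1.94 to 2.91) reached down to the 2-fold limit, so their margins were within counting error. For CGA1 and PAP1 the margin was narrow too. From 1 control read, 15 reads with Cd would be needed for Col, more than the 14 of CGA1. From 2 control reads it would be 17, more than the 15 of PAP1. Whether the unlisted Col levels differ from those of ein3eil1 was not measurable from these tables.

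**Figure D2:**
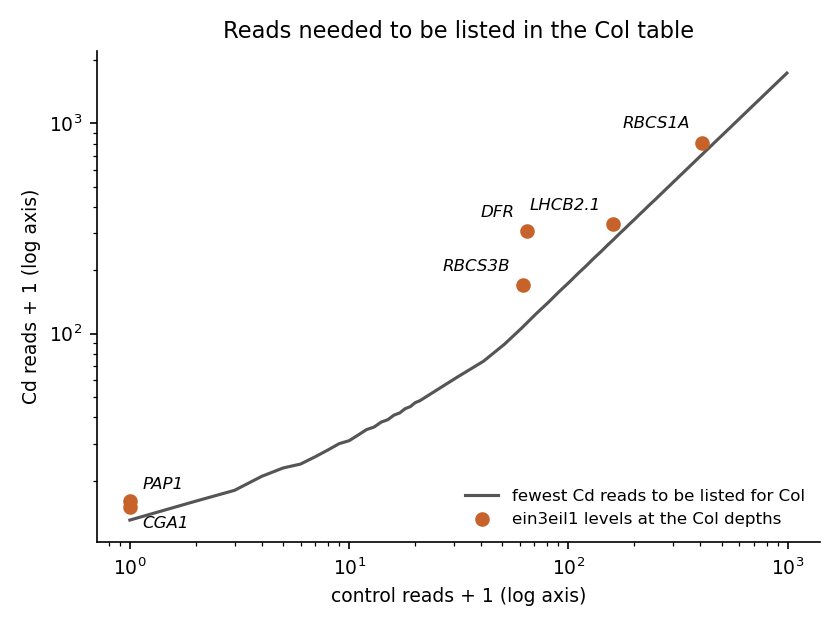
Fewest reads with Cd (vertical, reads + 1, log axis) that the authors' limits require for a model to be listed as higher in Col, against its control reads (horizontal, reads + 1, log axis), drawn as a line; orange points are the levels of the 6 genes in ein3eil1 scaled to the depths of the Col libraries. All 6 points lie above the line, CGA1 at 14 reads against the 12 required and DFR at 305 against 112. That was close to fixed in advance, as all 6 genes were listed in ein3eil1 under nearly the same limits.

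The genes around DFR in the pathway were taken from lists that were written with earlier results of these data known. In ein3eil1, 2.21% of all models tested were listed as higher and 1.29% as lower. Of 17 anthocyanin and flavonoid enzyme genes, 4 were listed as higher there, DFR included, and none as lower. The other 3 all act after DFR, where sugars and acyl groups are added to the pigment. AT5MAT (AT3G29590), the malonyltransferase, had 3 reads without and 45 reads with Cd, or 0.131 and 1.98 RPKM, a 15.2-fold ratio whose interval ran from 4.87 to 76.3. AT4G14090, annotated as the anthocyanidin 5-O-glucosyltransferase that precedes AT5MAT, had 30 and 133 reads, or 1.07 and 4.8 RPKM, a 4.48-fold ratio (3 to 6.91). UGT79B1 (AT5G54060), the xylosyltransferase, had 25 and 65 reads, or 0.987 and 2.59 RPKM, 2.63-fold (1.64 to 4.35). The early enzyme genes CHS, CHI, F3H and F3'H and the late genes LDOX and GSTF12 were not listed in either table. Of 6 genes of the preceding phenylpropanoid steps, 4CL3, for the ligase that feeds flavonoid synthesis, was the 1 listed: it had 61 and 127 reads, 2.11-fold (1.54 to 2.91), and its sign turned on that centring.

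Among 17 regulators of the pathway, PAP1 and MYB12 were listed as higher in ein3eil1 and none as lower. The shares over all models there were 2.21% and 1.29%. MYB12 (AT2G47460), an activator of the early flavonol genes, had 250 and 594 reads, or 10.1 and 24.3 RPKM, 2.4-fold (2.07 to 2.8). The close relatives of PAP1 (PAP2, MYB113 and MYB114), its bHLH partners TT8, GL3 and EGL3 and the repressor MYBL2 were not listed. No gene of these 3 lists was listed for Col, where 1.56% of models were listed as higher and 1.24% as lower.

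Against shares over all models of 2.21% higher in ein3eil1 and 1.56% in Col, 11 greening and light regulators were looked up. Of these, 4 were listed as higher in ein3eil1, CGA1 included, and none was listed for Col. HYH (AT3G17609), a bZIP factor related to the light regulator HY5, was listed with 3 models. The model with the most reads had 49 and 150 reads, or 4.32 and 13.4 RPKM, 3.1-fold (2.23 to 4.37), and the others were 3.78-fold and 2.57-fold higher. GLK2 (AT5G44190), which controls photosynthesis genes, had 101 and 216 reads, or 4.23 and 9.16 RPKM, 2.16-fold (1.7 to 2.77), with a sign that turned on the centring described. GUN4 (AT3G59400), which promotes chlorophyll synthesis, had 16 and 45 reads, or 0.947 and 2.69 RPKM, 2.85-fold (1.58 to 5.39). GNC, the nearest relative of CGA1, was not listed, nor were GLK1, HY5 or the 4 PIF genes of the list.

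The photosynthesis genes themselves were mostly unlisted, as were models in general. In ein3eil1, 2.21% of all models tested were listed as higher and 1.29% as lower, so being unlisted sets no gene apart. LHCB2.1 was the 1 gene of 18 light-harvesting genes listed in ein3eil1, and RBCS1A and RBCS3B were the 2 of 10 Rubisco and carbon fixation genes. None of 16 photosystem and plastocyanin genes and none of 15 chlorophyll synthesis genes was listed in ein3eil1. In Col, 2 other genes of these lists were listed, both as lower. LHCB4.2, a minor antenna protein, had 45 reads in the control and 10 with Cd, or 2.09 and 0.53 RPKM, 3.93-fold lower (1.95 to 8.75), in a table where 1.24% of models were listed as lower. PSAN, a subunit of photosystem I, had 35 and 7 reads, or 2.4 and 0.549 RPKM, 4.37-fold lower (1.91 to 11.7). Neither was listed in ein3eil1, so these are different genes from those listed there, and no difference between the genotypes was tested.

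Because CGA1 responds to cytokinin, 10 type-A response regulator genes, which cytokinin induces, were looked up as well. None was listed in ein3eil1. ARR5 was the 1 listed in Col, where it had 637 and 254 reads, or 24.2 and 11 RPKM, 2.19-fold lower (1.89 to 2.55). Over these 9 pathway lists, 8 of the 114 genes outside the 6 described were listed as higher in ein3eil1 and none as lower, and 3 were listed as lower in Col and none as higher. Among all models tested, 2.21% were listed as higher and 1.29% as lower in ein3eil1, and 1.56% as higher and 1.24% as lower in Col. The lists were written with earlier results known, and no difference between the genotypes is read from these counts.

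**Figure D3:**
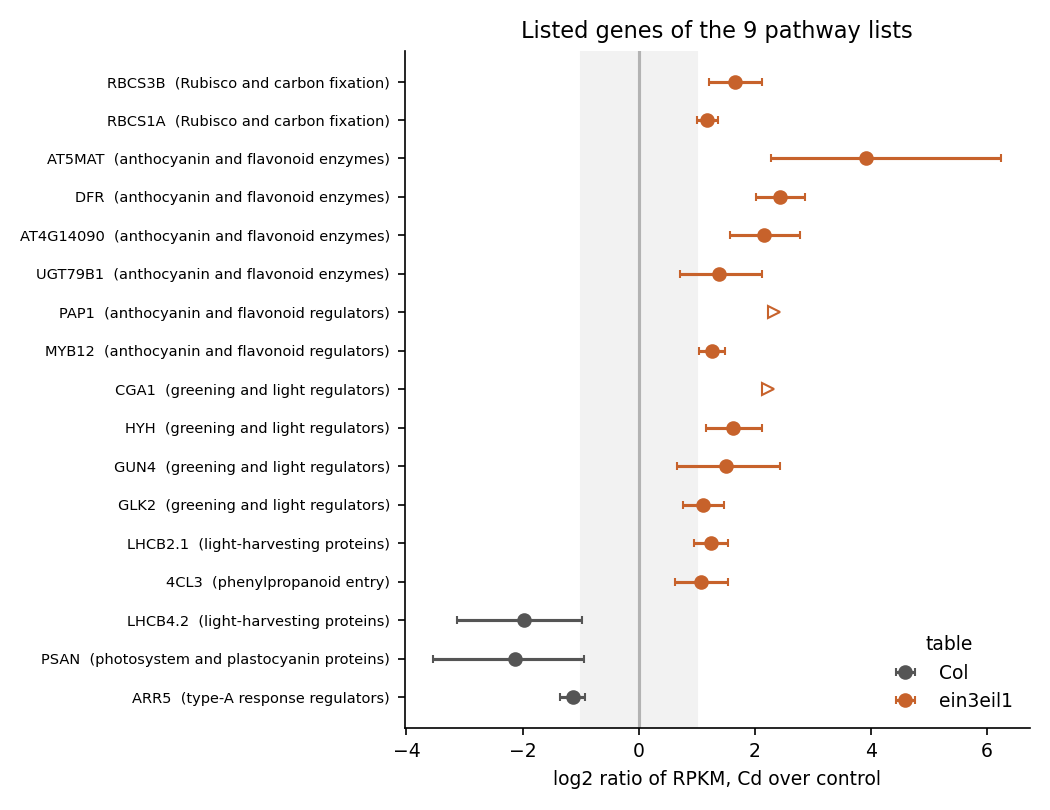
Log2 ratio of RPKM (horizontal, Cd over control) of the listed genes of the 9 pathway lists, with 95% exact counting intervals, in the ein3eil1 table (orange) and the Col table (grey); open triangles are ratios to a floor of 3 control reads and the shaded band is the range below 2-fold that the tables leave out. The 14 genes of ein3eil1 lie to the right and the 3 genes of Col to the left.

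Tissue is given as root tip or primary root in the labels, and 1 protocol also mentions shoots. Leaves hold far more photosynthesis transcripts than roots, so 9 markers of shoot meristem, leaf and stomata were looked up. None was listed in ein3eil1. In Col 2 were listed as higher: FIL had 0 reads in the control and 16 with Cd, and MYB60 had 1 and 17 reads, 19.5-fold higher (3.05 to 813). The shares over all models were 2.21% higher and 1.29% lower in ein3eil1, and 1.56% and 1.24% in Col. Of 16 root markers, none was listed as higher in ein3eil1 and 2 were listed as lower. FRO2, the root's ferric chelate reductase, had 51.4 RPKM in the control and 8.94 with Cd, 5.74-fold lower (5.14 to 6.44), and IRT1, the iron transporter, had 53.7 and 10.8 RPKM, 4.97-fold lower (4.33 to 5.71). In Col 3 were lower, FRO2 (13.5-fold), IRT1 (12.9-fold) and CASP1 (2-fold), and NRT2.1 was 3.11-fold higher. The levels of the 7 other shoot markers and of all 9 in ein3eil1 are not given, so the part of shoot or root tissue in the values of LHCB2.1, RBCS1A and RBCS3B was not tested. In such bulk samples more cells with a transcript and more transcript per cell cannot be told apart.

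**Figure D4:**
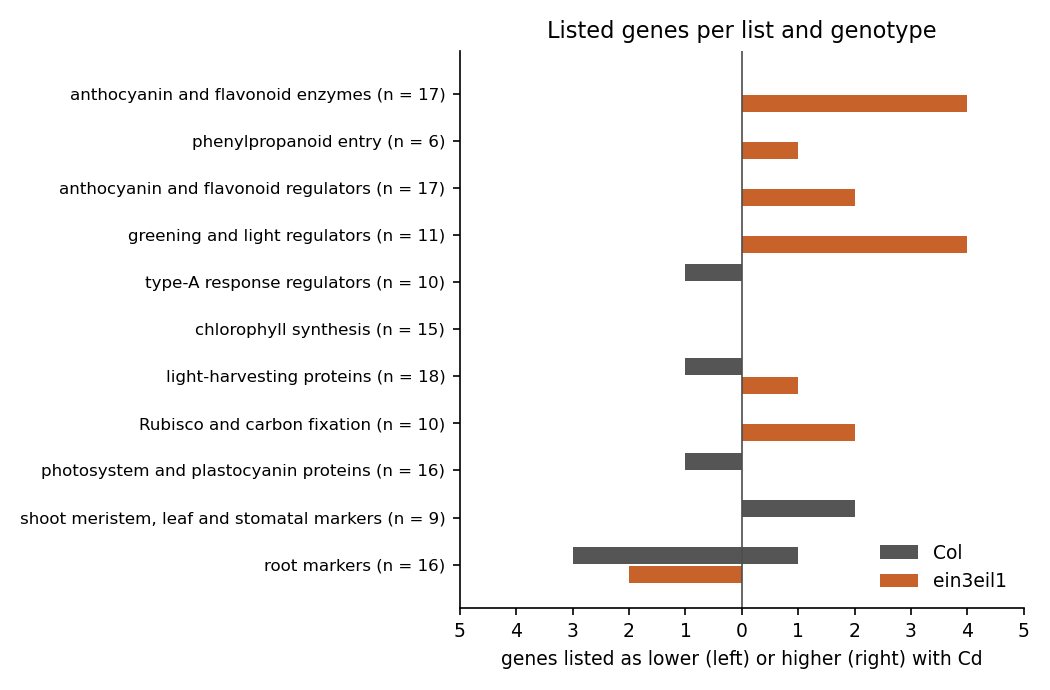
Number of genes listed as lower (left) or higher (right) with Cd in Col (grey) and ein3eil1 (orange) for each gene list, with the size of the list in brackets. Anthocyanin enzymes and greening regulators have 4 genes each to the right in ein3eil1 and none in Col. The shares of all models listed as higher were 2.21% in ein3eil1 and 1.56% in Col.

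Near-identical copies limit the reading of 2 of the 6 genes. Of the 50-base windows of the RBCS3B reference transcript, 20.9% also occur in its neighbours on chromosome 5, 17.8% in RBCS1B (AT5G38430) and 11.5% in RBCS2B (AT5G38420). Of those of LHCB2.1, 20.2% occur in LHCB2.2 (AT2G05070). With 90-base windows the shares were 15% and 9.29%. No such window of DFR, PAP1, CGA1 or RBCS1A occurs in a transcript of another gene. RBCS1B, RBCS2B and LHCB2.2 were not listed in either table, and how the authors divided shared reads is not given in the sources used here. RBCS3B has 3 reference transcripts, RBCS1A and LHCB2.1 have 2 each, and DFR, PAP1 and CGA1 have 1. The reference transcripts differ in length from the deposited models, which lie within the reference genes.

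Genes with the most similar pair of levels in ein3eil1 were found among 852 models with 10 reads or more in both libraries, by the distance between log2 RPKM values. Nearest to DFR were MBF1C, for a transcriptional coactivator of heat stress (2.52 and 12.3 RPKM, distance 0.13), the aconitase gene ACO1 (0.17) and the glycosyltransferase gene AT2G16890 (0.24). Nearest to RBCS1A were the extensin-like gene AT4G13390 (0.05), the methyltransferase gene AT1G21120 (0.06) and the MATE transporter gene AT3G21690 (0.07). Nearest to LHCB2.1 were the cyclin-dependent kinase inhibitor gene ICK3 (0.06), AT1G01640 (0.09) and AT1G11700 (0.11), and to RBCS3B AT1G10865 (0.14), AT2G36885 (0.14) and CYP81D8 (0.15). With 0 control reads, PAP1 and CGA1 had too few reads for this measure. Only 2 libraries enter it, so it sets apart genes by level and ratio and by nothing else.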

How the data were processed

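Root RNA was reverse transcribed from random primers and run on an Illumina HiSeq or other sequencer, per the labels' protocols. The authors deposited 2 tables, 1 per genotype. Per the file headers they give for each model the read count and RPKM of both libraries, the log2 ratio, a p-value and an FDR. No source used here gives the aligner, counter, strand setting or build. Library totals recovered from the RPKM values were 19192279 reads for untreated and 16773595 for Cd-treated Col, and 16993296 and 16802110 for ein3eil1. The deposited tables hold only models at least 2-fold apart with an FDR of up to 0.000967 (Col) or 0.000987 (ein3eil1). The numbers of models tested, 28758 and 28617, were worked out from the deposited p-values and FDR values, each of which must give a whole-number rank. EIN3 and EIL1 were not listed, so the genotype could not be checked.

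The ratios computed here are of reads scaled by library totals, with no pseudocount; a gene with 0 reads was set against 3 reads. Ratio intervals are 95% Clopper-Pearson intervals, computed on the Cd library's share of a model's reads. On simulated Poisson counts with 200 changed genes, they covered the simulated ratio in 95.2% of 807 models (Col) and 96.4% of 1001 (ein3eil1). The simulation held counting error only and applied no limit for listing. It therefore checks the computation, and not the coverage for real models that were listed because they passed such limits. The members and the 12 gene lists (147 entries, all in the TAIR10.1 annotation) were chosen with earlier results of these data known. A list counts loci, by the model with the most reads. Named were all 6 members, up to 4 listed genes of each list, the 3 most similar models, and, chosen after their values were seen, ELIP1, ELIP2, PSAP, CKX3, CLH1 and GATA23. Alternatives tried were a 4-fold threshold, a minimum of 5 RPKM, an FDR of 1e-05, a pseudocount of 1 RPKM, centred ratios, unscaled reads and summed models. Software was SciPy 1.17.1, pandas 2.3.3, matplotlib 3.10.9 and numpy 2.4.6 under Python 3.11.15.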

Additional observations from a re-analysis of the deposited data

How the results depend on the processing

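With 1 library per group no replicate could be left out and no test was run. No paired analysis was possible because each group has 1 library. None of the 6 genes changed sign under any alternative. Summing models could change nothing, as each of the 6 has 1 listed model. The 6 listed as higher in ein3eil1 became 3 at a 4-fold threshold (DFR, PAP1 and CGA1) and 3 with centred ratios. Both counts take PAP1 and CGA1 by their ratio to the floor of 3 control reads, with intervals that began at 3.63-fold and 3.35-fold. Their place in both was fixed in advance, as a model listed from 0 control reads had 13 or more reads with Cd. The count was 4 at 5 RPKM, at an FDR of 1e-05 or with a pseudocount of 1 RPKM, each of which left out PAP1 and CGA1. With that pseudocount the log2 ratio was 0.98 for PAP1 and 0.71 for CGA1. In Col the count was 0 under each, which was fixed in advance, as none of the 6 is listed there. For the lists in ein3eil1, a 4-fold threshold left 1 pathway regulator (PAP1) and 1 greening regulator (CGA1) as higher, both by that floor. It left 0 phenylpropanoid, light-harvesting or Rubisco genes as higher. A minimum of 5 RPKM left 1 anthocyanin enzyme, 1 pathway regulator, 2 greening regulators and 0 phenylpropanoid genes. In Col, a 4-fold threshold left 0 type-A regulators and 0 light-harvesting genes as lower and 0 root markers as higher. There, 5 RPKM left 0 light-harvesting and 0 photosystem genes as lower and 0 shoot markers as higher. The other 99 counts moved by 1.5 times or less. Many of them were 0 from the start, and a stricter limit could not change a 0, so they show no robustness. No value could be given for ein3eil1 against Col, as no member is in both tables.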

Other observations

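Other genes related to chlorophyll, cytokinin and GATA factors were found by their descriptions in the tables, so they were chosen after their values were seen. ELIP1 and ELIP2, early light-induced proteins of the chlorophyll-binding family that appear under light stress, were listed as higher in both genotypes. ELIP1 had 41.7 RPKM without and 136 RPKM with Cd in Col, 3.26-fold (3 to 3.56), and 52 and 192 RPKM in ein3eil1, 3.7-fold (3.42 to 4.01). ELIP2 had 20.2 and 62.2 RPKM in Col, 3.08-fold (2.71 to 3.52), and 23.7 and 85.5 RPKM in ein3eil1, 3.6-fold (3.18 to 4.09). CLH1, a chlorophyllase, had 7 and 92 reads in ein3eil1, 13.3-fold higher (6.2 to 34), and was not listed in Col. GATA23, a GATA factor like CGA1, was lower in ein3eil1, with 57 reads in the control and 13 with Cd, 4.34-fold lower (2.34 to 8.63), and was not listed in Col.

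In Col, PSAP (AT2G46820), whose name refers to photosystem I, had 80 and 28 reads, 2.5-fold lower (1.61 to 3.99). CKX3, an enzyme that breaks down cytokinin, had 73 and 28 reads, 2.28-fold lower (1.46 to 3.66). Neither was listed in ein3eil1. All 6 of these genes kept their direction with centred ratios and with a pseudocount of 1 RPKM.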
